A study of Homo sapiens with 6 samples.

Results

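The microRNA processing and mRNA decay machinery comprises the enzymes that make microRNAs, the silencing complex that carries them, and the deadenylation and decapping factors that remove the messages they bind. The 46 member genes were taken by name from these steps, and a gene was measured where a probe set carried its symbol alone. Of these, 44 were found among the 19775 genes of the array, 43 were bright enough to be tested, and LIN28A lay under the filter on dim genes. DGCR8 and PABPC4 had no probe set with a single symbol, so their transcripts were not measured here. RNA came from U87-2M1 cells, an invasive subline of the human U87 glioma line that was obtained through a lung metastasis assay in animals and then grown in culture. In one group of 3 arrays the cells had received a baculoviral miR-10b decoy vector, and in the other 3 the baculoviral control decoy vector. All cells of both groups were at passage 4, were kept in hypoxia and had been transduced with an insect virus vector. A decoy is a transcript meant to hold a microRNA away from its targets, and whether it bound miR-10b was not measured here. The labels do not say that replicates were separate cultures, so the p-values measure the spread between these arrays, which may be technical. In such bulk RNA, fewer cells of a kind and less RNA per cell cannot be told apart.

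A microRNA is cut from its primary transcript in the nucleus by DROSHA with DGCR8, exported by XPO5 and cut again by DICER1. An Argonaute protein (AGO) then holds the mature strand and binds a scaffold protein of the TNRC6 family, which recruits the deadenylases PAN2-PAN3 and CCR4-NOT. Once its poly(A) tail is short, the message loses its cap to DCP2 and is degraded from the 5′ end by XRN1. In glioma, miR-10b is known as an abundant microRNA that is scarce in normal brain. The comparison asks how transcripts for this machinery differ with a decoy for one of the microRNAs it carries.

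Signals are given after quantile normalisation, which sets the arrays on one scale, because the deposited signals did not share one: the 2% trimmed mean was 192 on control replicate 3 and between 155 and 163 on the other 5 arrays. Over the tested genes, pairs of arrays had r of 0.985 to 0.987 inside a group and of 0.967 to 0.973 across the groups. Of 10 markers of glioma and glia, VIM, CD44, TNC, CHI3L1, NES and SOX2 lay above the filter level, whereas GFAP, S100B, OLIG2 and AQP4 had means under it. OLIG2 was at 19.7, 19.7 and 29.9 on the decoy arrays, all above the level of 15.6, against 0.806, 5.23 and 7.80 on the control arrays, all under it, and was not tested. Their summed signal was 26855 to 27193 on the decoy arrays, against 26523 to 27519 on the control arrays, and NES fell. Macrophage markers (2 of 6 above the filter level) summed to 88.0 to 122, against 82.8 to 129, and lung epithelial markers (2 of 6) to 120.3 to 185, against 176 to 213. The other sets had lower sums on every decoy array: endothelial (3 of 5 above the level) at 207 to 214, against 253 to 324, keratinocyte (3 of 5) at 2638 to 2817, against 3150.3 to 3683, and neuronal (4 of 6) at 656 to 663, against 954 to 1033. KRT10 made up 2616, 2608 and 2771 of the keratinocyte sum on the decoy arrays, against 3584, 3593 and 3047 on the control arrays. SNAP25 made up 335, 339 and 341 of the neuronal sum on the decoy arrays, against 621, 646 and 616 on the control arrays, while the neuronal marker GAD1 had a difference of 0.12 (limma, adjusted p = 0.464). The part of these markers in the results was not tested. The 3′/5′ signal ratio of actin, a sign of RNA integrity, was 10.6, 7.36 and 7.68 on the decoy arrays, against 6.22, 5.27 and 5.69 on the control arrays, and the groups did not overlap (exact permutation test, two-sided p = 0.1, the smallest that 3 against 3 allows). That of GAPDH was 0.943 ± 0.0075 on the decoy arrays and 0.945 ± 0.019 on the control arrays (SD, n = 3 each; exact permutation p = 0.9). The actin ratio moved with every difference between the groups given below, and its part in them was not tested.

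All 3 TNRC6 scaffolds, the helicases DDX5, DDX17 and DDX6 and the exonuclease XRN1 were higher with the miR-10b decoy, while the nuclear enzyme DROSHA, the helicase MOV10 and the CCR4-NOT scaffold CNOT1 were lower. Of the 43 tested members 15 were higher and 5 were lower, and 23 did not pass. In the same test 33.9% of all 13842 genes passed, 16.6% higher and 17.3% lower, against 34.9% of members higher and 11.6% lower. The median log2 difference of the members, decoy minus control, was 0.15, beside -0.02 over all genes tested. The largest rise was in TNRC6B, at 1.83-fold, and the largest fall in MOV10, at a log2 difference of -0.48. Each difference was tested with limma across all genes, two-sided, on log2(signal + 7), with Benjamini-Hochberg adjustment and a threshold of 0.05. With the deposited signals left on their own scale, 7 members were higher and 6 lower, in a test that called 7.9% of all genes higher and 18.5% lower. Centring each array on its median gave 18 higher members and 3 lower ones, against 20.7% and 12.6% of all genes. Another setting gave a gene the mean of all its probe sets, including those under the filter. There 5 members were higher and 3 lower, against 10.6% and 11.4% of all genes. Of the genes named at the start of this paragraph, TNRC6A, TNRC6C, DDX17, DDX6, XRN1, MOV10 and CNOT1 did not pass in that setting.

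**Figure D1:**
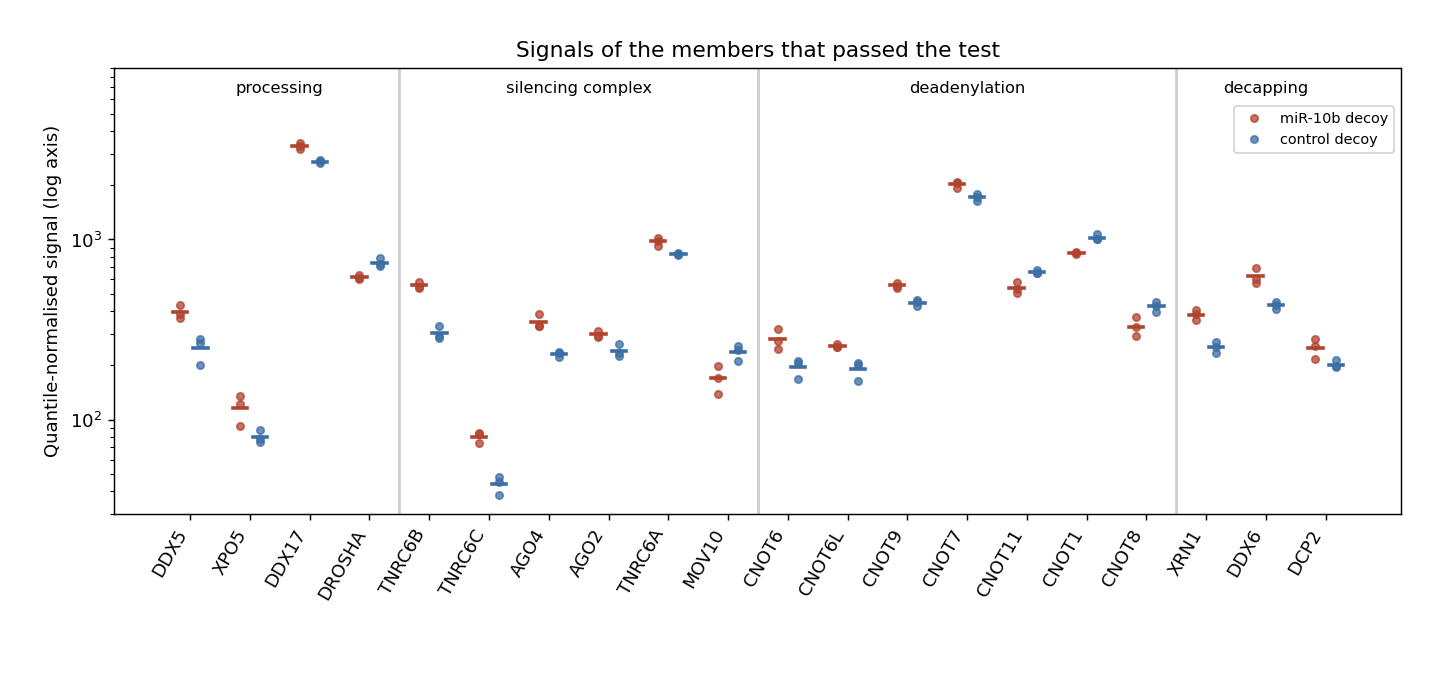
Quantile-normalised signal (log axis) of the 20 members that passed the test, grouped by role, with one point per array and a bar at the mean of each group of 3 arrays. The decoy arrays of TNRC6B lie between 539 and 584, above its control arrays at 283 to 330, and in all 20 members the groups do not overlap.

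For all 20 members that passed, the 3 decoy arrays lay on one side of the 3 control arrays. Those 20 were picked by a test on these same arrays, so this adds no support. Of all 43 tested members, the decoy arrays lay above the control arrays in 20 and below them in 9. Among all genes tested the groups did not overlap in 46.4%, with the decoy arrays above in 22.3% and below in 24.1%. Of the 23 members that did not pass, 14 overlapped, 5 lay higher and 4 lower on every decoy array. The 95% intervals of those 23 log2 differences ran from -0.52 at the lowest to 0.89 at the highest, so changes of such a size are not excluded for some of them.

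Of the 11 processing genes tested, 3 rose (27.3%, beside 16.6% of all genes) and 1 fell (9.09%, beside 17.3%), with a median log2 difference of 0.08. DROSHA, the nuclease that opens the pathway, had signals of 605, 632 and 612 on the decoy arrays, against 729, 716 and 786 on the control arrays. Every decoy array was below every control array, with a log2 difference of -0.27 (SE 0.067, adjusted p = 0.00912). Its only probe set passed downward in 16 of 17 alternative settings, with adjusted p from 0.00688 to 0.0949, and the exception was centring on the array median. Its promoter is shown as that of one of the members that fell, from the RefSeq table (build GRCh38.p14, chr5:31532044-31532343, minus strand), 250 bases before to 50 after the start, with letters of the motifs described further on in capitals.
DROSHA: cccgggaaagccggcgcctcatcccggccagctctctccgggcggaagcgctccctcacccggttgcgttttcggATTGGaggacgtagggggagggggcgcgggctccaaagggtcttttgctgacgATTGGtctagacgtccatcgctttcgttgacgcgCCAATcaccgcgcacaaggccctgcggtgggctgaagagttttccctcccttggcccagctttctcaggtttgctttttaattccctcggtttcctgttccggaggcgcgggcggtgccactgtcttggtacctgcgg

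DDX5 and DDX17 are related RNA helicases that help DROSHA and DGCR8 recognise some primary transcripts, and both went the other way from DROSHA. DDX5 had 365, 387 and 434 on the decoy arrays, against 200.3, 268 and 281 on the control arrays. All decoy arrays were above the controls by a log2 difference of 0.66 (SE 0.12, adjusted p = 0.00157), and its call ended without variance moderation (adjusted p = 0.0647, range over 17 alternatives 5.5e-04 to 0.0647). DDX17 reached 3289.7, 3194 and 3421 with the decoy, against 2718, 2756 and 2643 in controls. The difference of 0.29 (SE 0.046, adjusted p = 6.1e-04) was small beside that of DDX5, but the arrays of each group lay close together. The 3 other DDX17 probe sets above the filter had differences of -0.037, -0.10 and 0.15, none of which passed. For other probe sets, here and below, a lower filter was used, at the 30th percentile of the means of all probe sets.

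XPO5, the export receptor of precursor microRNAs, had 122, 91.8 and 135 on the decoy arrays, against 77.8, 75.5 and 87.0 on the control arrays. The log2 difference was 0.49 (SE 0.15, adjusted p = 0.0277), with decoy replicate 2 the nearest to the controls. This call was fragile: it held in 8 of 17 alternatives (adjusted p from 0.00842 to 0.562) and ended without decoy replicate 1 (0.0867), decoy replicate 3 (0.114), control replicate 1 (0.067) or control replicate 2 (0.0812). Both other XPO5 probe sets stood at -0.0027 and -0.0075.

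The cytoplasmic steps of processing did not pass. DICER1, which cuts the precursor to its mature length, had 285, 289 and 267 on the decoy arrays, against 309, 321 and 332 on the control arrays. All decoy arrays were below the controls, but the difference of -0.19 (95% interval -0.37 to -0.010) did not pass (adjusted p = 0.0971). It ran from -0.28 to -0.0065 over the alternatives. The 3 other DICER1 probe sets above the filter stood at 0.32, -0.29 and -0.31, and none passed. That at -0.31 was dim, with means of 10.1 on the decoy arrays and 12.8 on the control arrays, under the gene filter of 15.6. DICER1 partners split in direction, with PRKRA at 0.20 (adjusted p = 0.0553), passing after centring and with a higher filter, and TARBP2 at -0.11 (adjusted p = 0.379). ADAR, which edits adenosines in double-stranded RNA including some primary microRNAs, stood at 0.083, and just below 0 with the deposited scaling.

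The LIN28 proteins block maturation of let-7 microRNAs, and TUT4 and TUT7 add uridines to the precursors that LIN28A holds. LIN28B had 52.0, 50.3 and 59.5 on the decoy arrays, against 33.3, 33.7 and 45.0 on the control arrays. Its arrays did not overlap and its difference was 0.47 (95% interval 0.048 to 0.89), which did not pass (adjusted p = 0.0815) except without control replicate 3 (adjusted p = 0.0481) or without the intensity trend. LIN28A was dim on all arrays, at 1.29, 11.4 and 12.2 on the decoy arrays, against 0.935, 0.959 and 5.73 on the control arrays. TUT4 and TUT7 had the smallest differences of the processing genes. TUT4 had 204, 196 and 173 on the decoy arrays, against 203, 203 and 175 on the control arrays, and TUT7 had 315, 275 and 304 on the decoy arrays, against 305, 321 and 309 on the control arrays. Both groups of arrays overlapped in each gene, with differences of -0.022 and -0.066 whose sign turned under centring.

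The silencing complex held the largest rises, with 5 of 9 tested genes higher (55.6%, beside 16.6% of all genes) and 1 lower (11.1%, beside 17.3%) and a median log2 difference of 0.22. All 3 TNRC6 genes passed upward. These encode the scaffolds, also called GW182 proteins for their glycine-tryptophan repeats, that join Argonaute to the deadenylases. TNRC6B had 539, 544 and 584 on the decoy arrays, against 283, 291 and 329.9 on the control arrays. The lowest decoy array was far above the highest control array, at a log2 difference of 0.87 (SE 0.084, adjusted p = 1.6e-05).

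TNRC6B rested on more than one probe set. All 6 other TNRC6B probe sets passed the filter with positive differences, and 5 of them passed the test adjusted over all 28764 probe sets, in which 12.2% passed upward. One of these had 286, 286 and 313 on the decoy arrays, against 235, 211 and 179 on the control arrays (difference 0.49, adjusted p = 0.00664). The highest of the 6 differences was 0.92 and the lowest, which did not pass, was 0.35 (adjusted p = 0.0531). TNRC6B was the only member whose call held under all 17 alternatives, with differences from 0.67 to 0.96. Its promoter is shown as that of the member with the smallest p (GRCh38.p14, chr22:40044584-40044883, plus strand).
TNRC6B: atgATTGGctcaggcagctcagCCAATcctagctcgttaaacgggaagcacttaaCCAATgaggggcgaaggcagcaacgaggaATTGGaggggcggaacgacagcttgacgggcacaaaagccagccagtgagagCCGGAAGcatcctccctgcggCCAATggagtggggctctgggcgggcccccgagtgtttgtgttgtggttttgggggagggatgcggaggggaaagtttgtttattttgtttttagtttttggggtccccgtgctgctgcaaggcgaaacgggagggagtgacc

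TNRC6C also rose. Its signals were 83.3, 83.7 and 74.3 on the decoy arrays, against 37.9, 44.9 and 48.3 on the control arrays, with no overlap, and the difference was 0.79 (SE 0.16, adjusted p = 0.00267). Its 3 other probe sets above the filter differed by 0.41, 0.53 and 0.95, the same direction, though none of the 3 passed. With the mean of all its probe sets, including those under the filter, the call ended (adjusted p = 0.0658, range over 16 alternatives 0.0018 to 0.0658). TNRC6A rose least, with 984, 919.7 and 1020.1 on the decoy arrays, against 845, 833 and 823 on the control arrays. Its difference of 0.22 (SE 0.063, adjusted p = 0.017) was shared by a second probe set that passed, with 289, 327 and 284 on decoy arrays and 236, 236 and 246 on control arrays. Its 4 other probe sets above the filter did not pass, at 0.15, -0.095, 0.61 and 0.18. The TNRC6A call ended with the deposited scaling (adjusted p = 0.492), without decoy replicate 3 (0.051) and without control replicate 2 (0.0556), and held in 12 of 17 alternatives. On all 3 scalings the 3 TNRC6 genes kept positive differences.

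Of the 4 Argonaute genes 2 were higher and 2 did not pass. AGO4 had 332, 329 and 388 on the decoy arrays, against 235, 237 and 221 on the control arrays. The decoy arrays were well above the controls, with a difference of 0.58 (SE 0.092, adjusted p = 5.5e-04). A second AGO4 probe set went the opposite way and also passed, with 24.2, 22.2 and 19.4 on decoy arrays and 44.1, 37.1 and 36.7 on control arrays (difference -0.68, adjusted p = 0.0381), so the direction of AGO4 depended on the probe set. With the mean of its probe sets the difference was 0.14 (adjusted p = 0.577, range over 17 alternatives 2.1e-04 to 0.577).

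AGO2, the Argonaute that can itself cut a fully matched target, had 288, 312 and 291 on the decoy arrays, against 262, 225 and 233 on the control arrays. It rose by 0.30 (SE 0.091, adjusted p = 0.024) on its only probe set, and the arrays did not overlap. This call ended with the deposited scaling (adjusted p = 0.264), without decoy replicate 2 (0.0895), control replicate 2 (0.0963) or control replicate 3 (0.0634), and without moderation, so it held in 12 of 17 alternatives. AGO1 lay below all controls on every decoy array, with 236, 207 and 199.97 on the decoy arrays, against 255, 240.5 and 262 on the control arrays. The difference of -0.23 (95% interval -0.44 to -0.023) did not pass (adjusted p = 0.0828), though it did without decoy replicate 1 (0.0437), and its 3 other probe sets had differences from -0.33 to -0.11. AGO3 overlapped between groups, with 178, 209 and 171 on the decoy arrays, against 161, 188 and 191 on the control arrays and a difference of 0.046 that changed sign with the deposited scaling. A second AGO3 probe set lay higher on every decoy array, at 0.29 (limma over all probe sets, adjusted p = 0.0611). It was as bright after normalisation, with decoy and control means of 202 and 164, against 186 and 180 for the chosen one. The choice was made on the deposited signals. Another AGO3 probe set lay lower on every decoy array, at -0.21 (adjusted p = 0.188), and the last stood at -0.13. AGO4, AGO1 and AGO3 are adjacent protein-coding genes on chromosome 1 in the RefSeq table (assembly GRCh38.p14), in that order. Those neighbours had differences of 0.58, -0.23 and 0.046. A test of the differences between them was not run.

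MOV10, an RNA helicase that binds Argonaute, was the silencing gene that fell. It had 199, 170.4 and 138 on the decoy arrays, against 213, 244 and 255 on the control arrays, every decoy array lying below the controls. Its difference was -0.48 (SE 0.13, adjusted p = 0.0138), while its other probe set stood at -0.099. Without control replicate 3 the call ended (adjusted p = 0.0519), as it did without the trend or moderation and with the mean of probe sets (range over 17 alternatives 0.00164 to 0.134). FMR1, which encodes the fragile X protein FMRP, an RNA-binding partner of the complex, had 481, 432 and 505 on the decoy arrays, against 421, 440.3 and 411 on the control arrays. Its arrays overlapped at a difference of 0.15 (adjusted p = 0.175), and it passed only after centring (adjusted p = 0.0462, highest over alternatives 0.748).

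**Figure D2:**
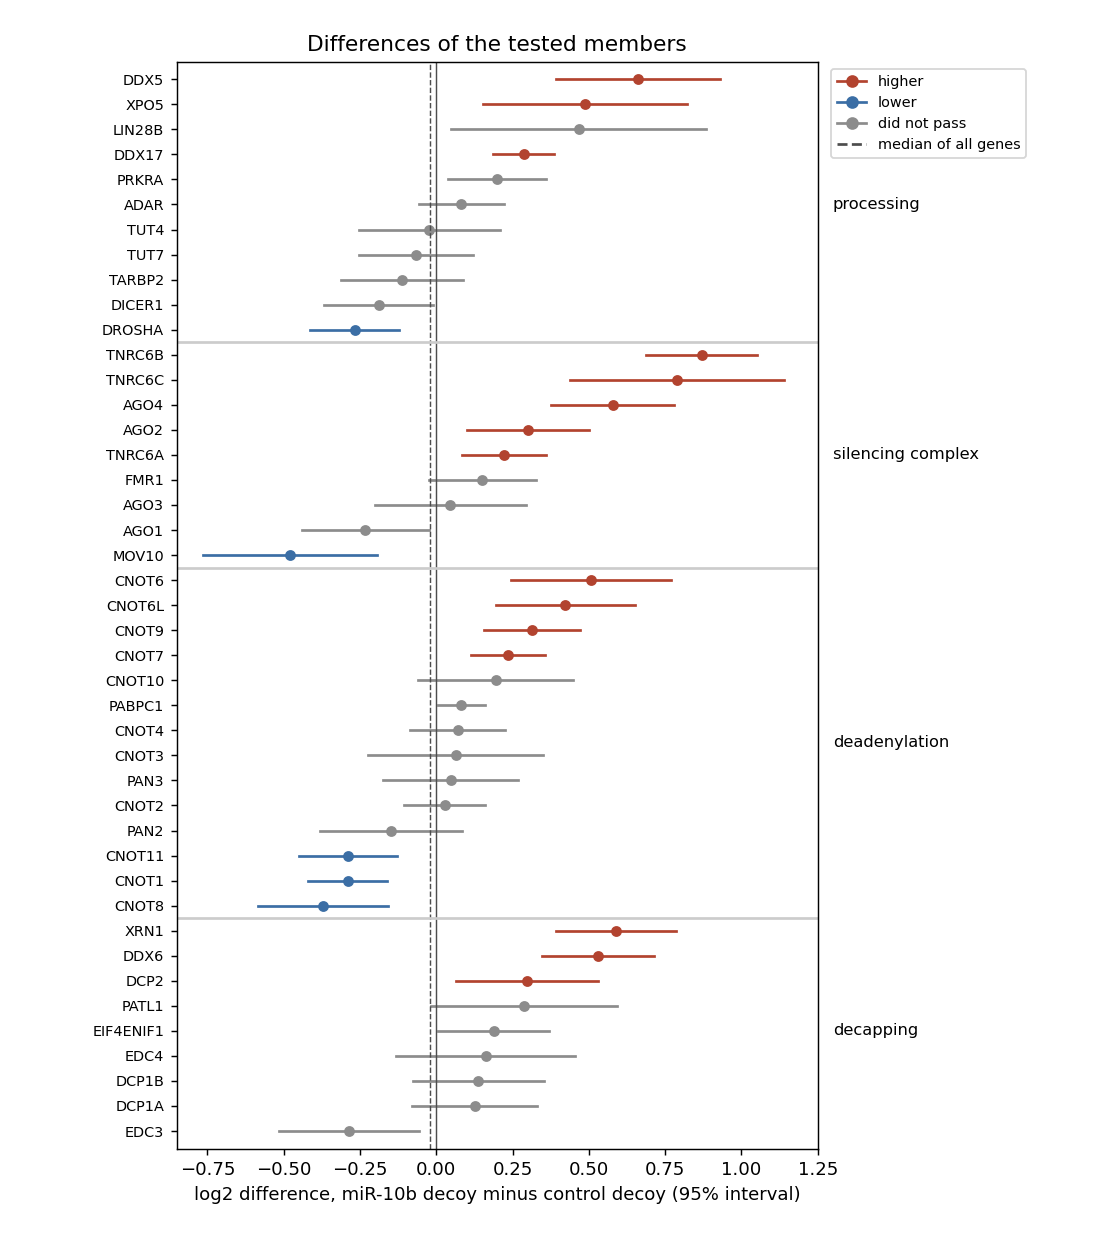
Log2 difference (decoy minus control, with its 95% interval from limma) of the 43 tested members, ordered within each role, with the median of all tested genes dashed at -0.02. TNRC6B at 0.87 and TNRC6C at 0.79 lie farthest to the right, MOV10 at -0.48 farthest to the left, and the deadenylation genes fall on both sides.

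Of 14 deadenylation genes tested, 4 were higher (28.6%), 3 lower (21.4%) and 7 did not pass, with a median of 0.07, where 16.6% of all genes were higher and 17.3% lower. All 7 calls were in CCR4-NOT, whose 11 genes were all tested. CNOT6 and CNOT6L, alternative deadenylases of one family (CCR4), were both higher. CNOT6 had 246, 274 and 320.1 on the decoy arrays, against 168, 205 and 211 on the control arrays, with a difference of 0.51 (SE 0.12, adjusted p = 0.0066). CNOT6L had 254, 264 and 252 on the decoy arrays, against 201, 207 and 164 on the control arrays, differing by 0.42 (SE 0.10, adjusted p = 0.00835). In neither gene did the groups overlap, yet the second CNOT6 probe set stood at 0.037 and those of CNOT6L at 0.16 and 0.22, none of which passed. The CNOT6 difference was 0.27 with the mean of its probe sets, and without moderation its call ended (adjusted p = 0.0874, lowest over alternatives 0.00235). The call of CNOT6L ended with the deposited scaling, with the mean of probe sets and without moderation (adjusted p from 0.00309 to 0.357 over alternatives).

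CNOT7 and CNOT8, alternative deadenylases of the other family (CAF1), had opposite signs. CNOT7 had 2069.8, 2079 and 1929 on the decoy arrays, against 1644, 1721 and 1799 on the control arrays, a rise of 0.23 (SE 0.056, adjusted p = 0.00681). A second CNOT7 probe set also passed upward, with 1369, 1485 and 1553 on decoy arrays and 1120.01, 1161 and 1247 on control arrays. Another one passed downward, with 100.1, 96.4 and 101 on decoy arrays and 137, 169 and 130.4 on control arrays (difference -0.51, adjusted p = 0.0117). One more stood at -0.087 without passing. The CNOT7 call ended with the deposited scaling, the mean of probe sets or no intensity trend (adjusted p from 0.00519 to 0.722 over alternatives). CNOT8 fell, with 291, 369 and 325 on the decoy arrays, against 452, 396 and 427 on the control arrays. Its difference was -0.37 (SE 0.098, adjusted p = 0.0118), and both other CNOT8 probe sets had negative differences, at -0.26 and -0.34, and that at -0.34 passed (adjusted p = 0.0205). Without the trend and without moderation CNOT8 no longer passed (adjusted p from 0.00702 to 0.0933 over alternatives).

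CNOT1, the scaffold on which the whole complex is built, had 836, 848 and 827 on the decoy arrays, against 1066, 1002 and 1007 on the control arrays. The decoy arrays were tightly grouped below the controls, at -0.29 (SE 0.059, adjusted p = 0.00283). It fell in 16 of 17 alternatives, but its other probe sets stood at -0.087 and 0.0059, and the call ended with the mean of all 3 (adjusted p = 0.295, lowest over alternatives 0.00215). CNOT11, which docks on CNOT1 together with CNOT10, had 505, 530.1 and 582 on the decoy arrays, against 674, 649 and 654 on the control arrays. It fell, with a difference of -0.29 (SE 0.073, adjusted p = 0.0098), passing in all alternatives but centring (adjusted p = 0.0917, lowest over alternatives 0.00472). CNOT10 itself stood at 0.19 (adjusted p = 0.227). The CNOT11 promoter is shown as the second of the members that fell with the smallest p among those in the table (GRCh38.p14, chr2:101252636-101252935, plus strand).
CNOT11: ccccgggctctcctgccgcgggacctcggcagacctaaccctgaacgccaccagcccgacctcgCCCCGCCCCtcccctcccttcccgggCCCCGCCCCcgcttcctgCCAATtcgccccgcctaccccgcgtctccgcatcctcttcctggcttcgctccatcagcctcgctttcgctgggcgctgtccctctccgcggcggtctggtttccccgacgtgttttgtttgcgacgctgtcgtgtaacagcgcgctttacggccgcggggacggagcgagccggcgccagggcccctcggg

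CNOT9, a subunit with pockets that hold tryptophans of TNRC6 proteins, had 577, 541 and 551 on the decoy arrays, against 462, 450.2 and 427 on the control arrays. It rose by 0.31 (SE 0.072, adjusted p = 0.00537). The 3 other CNOT9 probe sets above the filter did not pass, at differences from 0.040 to 0.22, and the call ended with the deposited scaling. With the mean of all 6 probe sets, 2 of them under the filter level, the sign turned to -0.09 (adjusted p = 0.658, lowest over alternatives 0.00111). The remaining subunits CNOT2, CNOT3 and the ubiquitin ligase CNOT4 had differences of 0.029, 0.064 and 0.070, and each turned negative with the deposited scaling. CNOT2 had 1132, 1157 and 1055 on the decoy arrays, against 1105, 1054 and 1118 on the control arrays, overlapping between groups. A second CNOT3 probe set fell, with 68.1, 63.4 and 62.4 on decoy arrays and 90.0, 106 and 116 on control arrays (adjusted p = 0.00689).

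The PAN2-PAN3 deadenylase and the poly(A)-binding protein did not pass. PAN3 had 213, 263 and 247 on the decoy arrays, against 227, 248 and 222 on the control arrays, with overlap and a difference of 0.047. PAN2 lay below the controls on all decoy arrays, at -0.15 (95% interval -0.38 to 0.085, adjusted p = 0.32). PABPC1, which coats the poly(A) tail, had 7635, 7792 and 7536 on the decoy arrays, against 7268, 7086 and 7328 on the control arrays. Its difference of 0.083 (95% interval 0.0055 to 0.16, adjusted p = 0.0935) did not pass, and its probe set carries the suffix for possible cross-hybridisation, as does that of FMR1.

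Among the 9 decapping and 5′ decay genes, 3 rose (33.3%, beside 16.6% of all genes), 0 fell (beside 17.3%) and 6 did not pass, with a median of 0.19. In limma 1 of the 9, EDC3, was lower at an unadjusted p under 0.05, and no other tool was run. XRN1, the exonuclease that degrades decapped messages, had 357, 388 and 405 on the decoy arrays, against 252, 271 and 235 on the control arrays. No decoy array came near the controls, at a difference of 0.59 (SE 0.089, adjusted p = 4.0e-04). The 3 other XRN1 probe sets stood at -0.12, -0.25 and 0.11, without passing. With the mean of all of them the XRN1 difference was 0.08 (adjusted p = 0.636), and in the other 16 alternatives the call held (from 1.7e-04). The XRN1 promoter is shown as that of the member with the next smallest p among those that rose (GRCh38.p14, chr3:142447988-142448287, minus strand).
XRN1: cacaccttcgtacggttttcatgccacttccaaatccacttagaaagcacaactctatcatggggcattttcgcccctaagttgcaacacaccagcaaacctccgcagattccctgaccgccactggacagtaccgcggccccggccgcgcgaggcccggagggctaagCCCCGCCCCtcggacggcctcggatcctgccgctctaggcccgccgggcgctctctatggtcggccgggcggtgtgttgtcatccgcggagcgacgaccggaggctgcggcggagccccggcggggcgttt

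DDX6, the helicase that links CCR4-NOT to decapping and to translational repression, had 576, 607 and 694 on the decoy arrays, against 409.9, 449 and 430.5 on the control arrays. The rise was 0.53 (SE 0.084, adjusted p = 5.3e-04), the groups well apart. Its other probe sets stood at 0.11 and 0.52 without passing, and its call ended only with the mean of all 3 (adjusted p = 0.0592, lowest over alternatives 2.1e-04). DCP2, the decapping enzyme, had 218, 255 and 280.2 on the decoy arrays, against 213, 195 and 197 on the control arrays. Decoy replicate 1 lay just above the highest control array. The difference of 0.30 (SE 0.11) barely passed (adjusted p = 0.0488), held in 5 of 17 alternatives (adjusted p from 0.0162 to 0.78), and ended without decoy replicate 2 (0.126), decoy replicate 3 (0.166), or control replicate 1 (0.0588), 2 (0.131) or 3 (0.108). Both other DCP2 probe sets above the filter stood at -0.067 and -0.14.

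The activators of DCP2 did not pass. DCP1A had 509, 517 and 518 on the decoy arrays, against 448, 424 and 548 on the control arrays, and DCP1B had 459, 395 and 412 on the decoy arrays, against 365, 350.1 and 437 on the control arrays. Control replicate 3 was the highest control array in both, and the groups overlapped at differences of 0.13 and 0.14. Without control replicate 3 DCP1A passed (adjusted p = 0.0464, highest over alternatives 0.855), as it did with the mean of its probe sets (0.0153), and a second DCP1A probe set passed with all arrays, with 321, 327 and 331 on decoy arrays and 269, 214 and 211 on control arrays (adjusted p = 0.00516). The scaffold EDC4 stood at 0.16 (adjusted p = 0.389).

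EDC3, another enhancer of decapping, lay below the controls on all decoy arrays, with 188, 169.9 and 151 on the decoy arrays, against 205, 201 and 217 on the control arrays. The difference of -0.29 (95% interval -0.52 to -0.057) missed the threshold (adjusted p = 0.0541), and it passed without decoy replicate 1 (0.0317), with the deposited scaling and with a higher filter. The other EDC3 probe set had the opposite sign, at 0.064, and did not pass. EIF4ENIF1, which binds the cap protein eIF4E and DDX6, lay above the controls on all decoy arrays, at 0.19 (adjusted p = 0.105), and passed after centring and without moderation. PATL1, which bridges DDX6 and the LSM ring, had 507, 537 and 354 on the decoy arrays, against 379.6, 415 and 333 on the control arrays. Decoy replicate 3 stood among the controls, and the difference of 0.29 (adjusted p = 0.137) passed when that array was left out (difference 0.47, adjusted p = 0.00593, highest over alternatives 0.609). The other PATL1 probe sets stood at 0.18, -0.034, 0.32 and -0.29, and none passed.

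**Figure D3:**
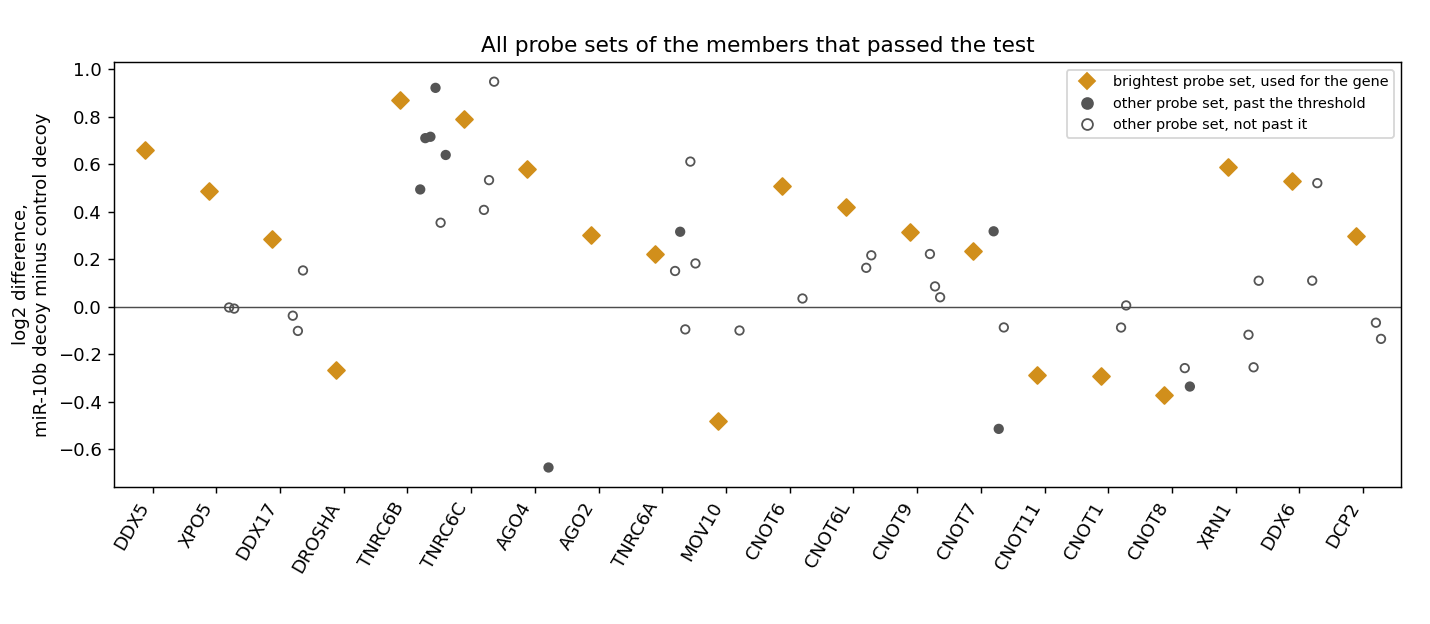
Log2 difference (decoy minus control) of each probe set above the filter of the test over all probe sets, for the 20 members that passed. The brightest probe set is a diamond and the others are circles, filled where they passed that test. TNRC6B is the gene with most filled circles, 5 of 6, and AGO4 and CNOT7 each have a filled circle of the opposite sign.

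Agreement between probe sets was uneven. Of the 20 members that passed, 4 (DROSHA, DDX5, AGO2 and CNOT11) had no other probe set. The other 16 had 54 further probe sets, of which 41 lay above the filter of the test over all probe sets. That filter is lower than the one for genes, so some of the 41 were dim. Of these 41, 28 had the sign of the brightest one and 13 the opposite sign. The test over all probe sets called 8 of them in the same direction and 2 in the opposite one, those of AGO4 and CNOT7. Over all 115 probe sets of the members that passed the filter, 22 were higher and 9 lower, against 12.2% and 12.6% of all 28764 probe sets.

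The motifs were chosen with the members' results known. The promoters printed above were searched on both strands for CCAAT (the CCAAT box), CCGGAAG (the core bound by ETS factors), GGGGCGGGG (the GC box), TGACGTCA (CRE), CACGTG (the E-box) and TATAAA (the TATA box). The TNRC6B promoter held 5 matches to CCAAT and 1 to CCGGAAG, and that of DROSHA held 3 matches to CCAAT. The XRN1 promoter held 1 match to GGGGCGGGG, and that of CNOT11 held 2 with 1 to CCAAT, with no overlap between matches in these 4. Of 46 members 39 had a promoter in the table, among them DGCR8, which was not measured and enters no count by direction. CCGGAAG was in 11 of these (28.2%), against 10.7% of 27305 promoters, and CCAAT in 17 (43.6%), against 35.7%. GGGGCGGGG was in 8 (20.5%), against 16%, and CACGTG in 4 (10.3%), against 7.43%. TATAAA was in 1 (2.56%), against 12%, and TGACGTCA in 0, against 1.98%. By direction, CCGGAAG was in 4 of 13 promoters of members that rose, 0 of 4 of members that fell and 7 of 21 of members that did not pass, and CCAAT in 4 of 13, 2 of 4 and 10 of 21. Median GC content was 67.3% in the members' promoters and 58.3% in all. These matches describe the letters of these windows and no more.

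Genes that work beside the members were counted in 6 further lists. Of 95 tested, 28 were higher and 12 lower, or 29.5% and 12.6%, beside 16.6% and 17.3% of all genes, with a median difference of 0.08. The chaperones that load Argonaute had 4 of 10 higher (40%, beside 16.6% of all genes) and 0 lower (beside 17.3%) in limma, with 0 lower at an unadjusted p under 0.05 as well. Their cochaperone DNAJB1 had 1541 ± 54.0 on decoy arrays and 1071 ± 66.1 on control arrays (SD, n = 3 each; difference 0.52, adjusted p = 7.5e-05). HSP90AB1, HSP90AA1 and the immunophilin FKBP4 rose by 0.18, 0.19 and 0.27, none of which passed with the deposited scaling. Each of these calls also ended without the intensity trend and without moderation, and those of HSP90AB1 and FKBP4 with the mean of probe sets. FKBP4 also failed without decoy replicate 1 (difference 0.24, adjusted p = 0.0829), decoy replicate 2 (0.28, 0.0608) or control replicate 1 (0.21, 0.0972), with adjusted p from 0.00624 to 0.323 over all alternatives.

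Of 20 cofactors of the microRNA pathway 3 were higher and 3 lower (15% each), near the shares over all genes of 16.6% and 17.3%. The LIM protein AJUBA, which associates with Argonaute at processing bodies, had 244 ± 37.2 on decoy arrays and 104 ± 5.36 on control arrays (SD, n = 3 each), a difference of 1.16 (adjusted p = 3.1e-05). TSNAX, a subunit of an endonuclease that clears the passenger strand, and FXR2, a relative of FMR1, rose by 0.32 and 0.36, and both calls ended with the deposited scaling. The zinc finger protein ZC3H7B fell, at -0.62, a call that ended with the mean of its probe sets (adjusted p = 0.207, from 2.1e-05 in the other settings).

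The list of adaptors and other factors of deadenylation and decay had 8 of 21 higher and 1 lower (38.1% and 4.76%, beside 16.6% and 17.3% of all genes). BTG1, which binds CNOT7 and CNOT8, had 2219 ± 140.1 on decoy arrays and 1455 ± 43.3 on control arrays (SD, n = 3 each; difference 0.61, adjusted p = 1.6e-05). CPEB2, RC3H2 (Roquin-2) and CELF1, proteins that bind elements in 3′ untranslated regions, rose by 0.57, 0.52 and 0.47. With the mean of all probe sets CPEB2 and CELF1 stood at 0.10 and 0.048 and did not pass. The CELF1 call also ended with the deposited scaling (adjusted p = 0.0541, range over alternatives 2.4e-05 to 0.823), and that of RC3H2 without moderation (0.0578, lowest 8.7e-04).

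In the list of the LSM ring and other cap enzymes 3 of 16 were higher and 3 lower (18.8% each), near the shares over all genes of 16.6% and 17.3%. Its ring subunits LSM4 and LSM5 fell, at -0.44 and -0.29, while LSM14A of processing bodies and the decapping cofactor PNRC1 rose, at 0.38 and 0.51. LSM14A did not pass with the deposited scaling (adjusted p = 0.0719, lowest over alternatives 1.7e-04). The list of the RNA exosome, the machine that degrades RNA from the 3′ end, had 7 of 17 higher and 4 lower (41.2% and 23.5%, beside 16.6% and 17.3% of all genes). Its ring subunits EXOSC6 and EXOSC4 rose by 0.81 and 0.80, with EXOSC6 at 1148 ± 97.2 on decoy arrays and 650.1 ± 18.7 on control arrays (SD, n = 3 each). SKIC3 and SKIC8, of the SKI complex that feeds RNA to the exosome, fell, at -0.40 and -0.29.

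Nonsense-mediated decay had 3 of 11 higher and 1 lower (27.3% and 9.09%, beside 16.6% and 17.3% of all genes). The helicase DHX34 and the junction protein RBM8A rose by 0.91 and 0.32. Neither passed with the mean of its probe sets (DHX34 0.44, adjusted p = 0.19, lowest over alternatives 0.0019; RBM8A 0.18, 0.10, lowest 6.2e-04), nor did RBM8A with the deposited scaling (0.19, 0.268). MAGOHB fell, at -0.42, a call that ended without decoy replicate 2 (-0.32, adjusted p = 0.0516, range over alternatives 0.00279 to 0.128). The endonuclease SMG6 rose by 1.14, with 1 control array under the filter level, and did not pass without decoy replicate 1 (0.97, adjusted p = 0.0746), decoy replicate 2 (1.02, 0.0672) or control replicate 1 (0.88, 0.0518), with adjusted p from 0.00771 to 0.214 over all alternatives. GAPDH differed by -0.021 (adjusted p = 0.658).

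**Figure D4:**
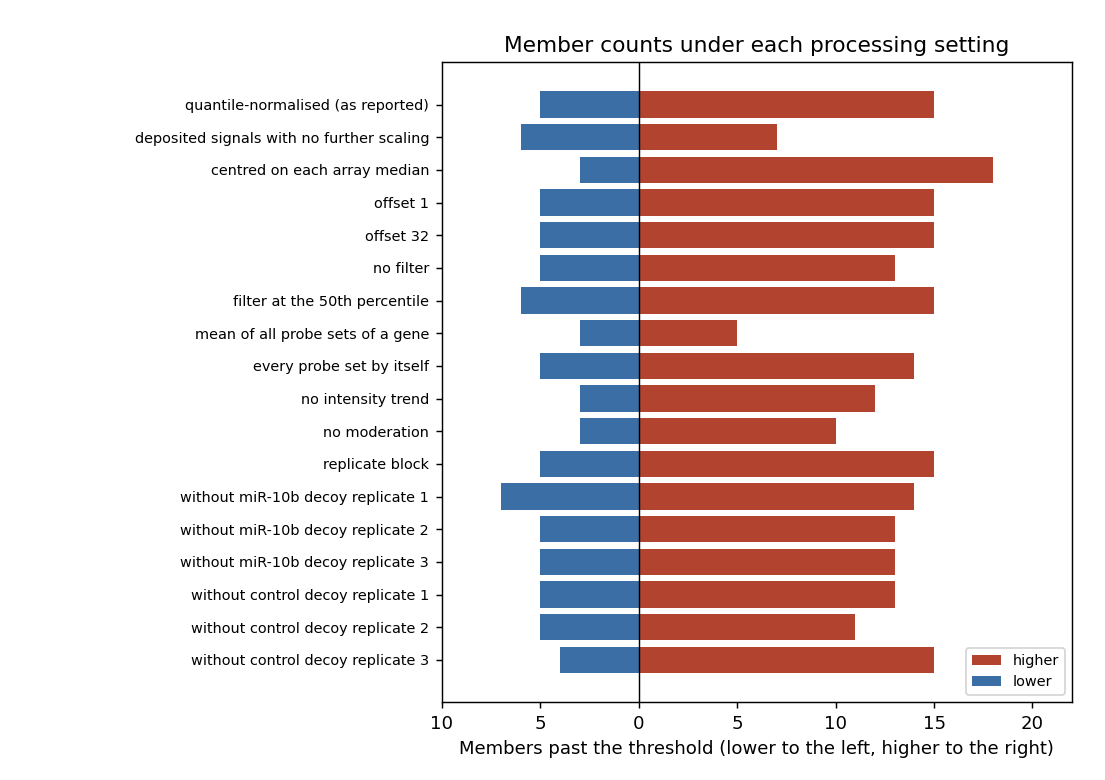
Number of the tested members past the threshold in each direction (higher to the right, lower to the left) under the reported setting and 17 alternatives. The count of higher members ranges from 5 with the mean of all probe sets to 18 after centring, and that of lower members from 3 to 7.

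Under the other alternatives 13 to 21 of the tested members passed. The count was 20 with an offset of 1 or of 32, where 33.7% and 34.3% of all genes passed. With no filter 18 of 44 members passed (20.8% of all genes), and with the filter at the 50th percentile 21 of 41 (45.3%). Without the intensity trend 12 were higher and 3 lower, against 13% and 13.1% (26.1% in all), and without moderation 10 and 3, against 10.5% and 9.96% (20.4% in all). With each probe set tested by itself, 19 of the members' chosen probe sets passed, against 24.9%. With the replicate number as a block 20 members passed, against 32.9%. Leaving out decoy replicates 1, 2 and 3 in turn gave 21, 18 and 18 members, against 29.8%, 28.2% and 28.6% of all genes. Leaving out control replicates 1, 2 and 3 gave 18, 16 and 19, against 28.3%, 26.8% and 30%. With the deposited scaling 26.4% of all genes passed in either direction, after centring 33.2% and with the mean of probe sets 21.9%.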

How the data were processed

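RNA from U87-2M1 cells was measured on 6 arrays, 3 per group, with groups and replicate numbers taken from the sample titles. The authors deposited linear signal intensities for 54675 probe sets, made with MAS5 per the submitters' processing notes. Which version was run, and to what target the arrays were scaled, is not given in the sources used here. Of the probe sets 41097 carried 1 gene symbol, 1801 several and 11777 none, in the platform annotation; 41037 of the 41091 used matched RefSeq by Entrez identifier. Members and lists were chosen with earlier results of these data known, as was quantile normalisation.

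Signals were quantile-normalised over all probe sets and turned into log2(signal + 7). Each of 19775 genes was represented by its probe set of highest mean signal. A filter at the 30th percentile of these means (a signal of 15.6) left 13842. The test over all probe sets had its own, lower filter, at the 30th percentile of the means of all 41091 probe sets used, which left 28764. Groups were compared with limma 3.58.1 (R 4.3.3), lmFit and eBayes with an intensity trend (7.68 prior and 4 residual degrees of freedom). On simulated data with 200 changed among 13842 genes, 45.4% of 1.5-fold and 74.6% of 2-fold changes were recovered, and 4.53% of calls were false. The adjustment depends on the share of changed genes, and 33.9% of genes passed in the real data. These rates therefore do not give the recovery of the reported test. Per-array values were given for members past the threshold and, in each role, the 2 with the smallest difference. Other members given so were chosen after their values were seen. In each further list, up to 4 genes past the threshold with the smallest p were named. Alternatives were another scaling (2), offsets 1 and 32, no filter or the 50th percentile, other uses of probe sets (2), no trend, no moderation, the replicate number as a block, and each array left out. The number of arrays limits the precision.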

Additional observations from a re-analysis of the deposited data

How the results depend on the processing

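The counts of members kept more higher than lower calls in every setting tried, though by only 7 to 6 with the deposited scaling. Their sizes depended on the scaling and on the choice of probe set. Centring called 20.7% of all genes higher and 12.6% lower. Over all genes, 1094 were higher with the deposited scaling; with the mean of all probe sets 1462 were higher and 1574 lower, with every probe set by itself 3523 and 3628, and without moderation 1450 and 1379. Members higher numbered 7 with the deposited scaling and 5 with the mean of probe sets; members lower numbered 3 after centring, with the mean of probe sets, without the trend and without moderation. Of the 95 tested genes in the 6 further lists, 11 were higher with the deposited scaling and 14 with the mean of probe sets. Without the trend 16 of them were higher, and without moderation 15. Of all genes 7.9%, 10.6%, 13% and 10.5% were higher in those 4 settings. Lower list genes numbered 6 after centring, 7 without the trend and 6 without moderation, against 12.6%, 13.1% and 9.96% of all genes. The median of all genes was -0.14 with the deposited scaling and -0.02 as reported, and the members' median lay 0.21 and 0.17 above it. With the mean of probe sets it lay 0.096 above that of all genes. Leaving out each array in turn gave 1873 to 2150 genes higher and 1832 to 2148 lower, 11 to 15 members higher and 4 to 7 lower, and 21 to 27 list genes higher and 9 to 13 lower.

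The mean of probe sets kept 4 of the 15 higher and 3 of the 5 lower calls. Of these, DDX5, AGO2, DROSHA and CNOT11 have only 1 probe set, so the setting leaves their differences unchanged and does not test them. Among called members with more than 1 probe set, only TNRC6B, CNOT6 and CNOT8 kept the call. The mean takes in probe sets under the filter, such as the only other one of EIF4ENIF1, at 0.839 to 5.44 over the arrays. A CNOT2 probe set under the filter stood at -1.01, and its 2 others above the filter at -0.060 and -0.019. Differences that changed sign with the mean of probe sets were TARBP2 (0.18), PRKRA (-0.059), AGO3 (-0.00044), CNOT2 (-0.26), CNOT3 (-0.27), CNOT4 (-0.053), CNOT9 (-0.090) and EIF4ENIF1 (-0.13). With the deposited scaling those of ADAR (-0.0027), AGO3 (-0.056), PAN3 (-0.038), PABPC1 (-0.058), CNOT2 (-0.062), CNOT3 (-0.056) and CNOT4 (-0.013) did, and after centring those of TUT4 (0.057) and TUT7 (0.021). Leaving out each array in turn gave TUT4 differences from -0.091 to 0.045, turning without decoy replicate 3 or control replicate 1 or 2. It gave AGO3 differences from -0.039 to 0.10, turning without decoy replicate 2 or control replicate 1, and PAN3 differences from -0.016 to 0.13, turning without decoy replicate 2. Among these only CNOT9 had passed as reported. The GAPDH 3′/5′ difference ranged from -0.0096 to 0.0086, turning without decoy replicate 1 or control replicate 1. The cause of these turns was not tested. With the replicate block 15 members were higher and 5 lower, and 2219 and 2335 of all genes; the DCP2 call was lost and that of PATL1 gained. Same-numbered arrays did not deviate together after normalisation (r of 0.03, -0.03 and -0.01). Whether they share more than a number cannot be told from this. Over single genes and alternatives, 89 calls were lost with the sign kept, 1 more (CNOT9) with the sign turned, and 15 were gained.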
